A study of Mus musculus with 8 samples.

Results

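Foxp3 is the gene of the forkhead transcription factor that defines regulatory T cells (Treg). It was followed here at the level of the gene and of its transcripts, as the 1 row named Foxp3 among 38215 genes and as its 4 rows among 92351 transcripts in tables of RNA sequencing data. The libraries compared Treg of the bone marrow (BM-Treg, 4 libraries) with Treg of the spleen (SP-Treg, 4 libraries). FoxP3+ cells had been sorted from untreated B6.FoxP3-GFP mice, which the labels give as C57Bl/6, at an age of 12 weeks. In these mice green fluorescent protein marks cells that express FoxP3, so the sort itself chose cells by the gene described here, and the levels are levels among sorted cells. The paper's methods name female mice as the rule, while the sample labels give both sexes. By the labels, female mice gave BM-Treg replicates 1 to 3, in batch 1. Male mice, also by the labels, gave BM-Treg replicate 4 and all SP-Treg replicates, in batch 3. Tissue, batch and sex therefore cannot be told apart except through BM-Treg replicate 4, and p-values measure the spread between libraries. The methods call the libraries biological replicates, but do not say whether each is 1 mouse or a pool, and the codes in the titles of the spleen libraries overlap in their numbers without an explanation. In bulk samples, fewer cells of a type and less RNA per cell cannot be told apart.

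As background, FoxP3 binds regulatory DNA together with partner proteins, holds many genes of activated T cells down and holds others up. Its own gene lies on the X chromosome and is kept on by signals from the T cell receptor, by IL-2 through STAT5 and by DNA elements within the gene. Transcription starts upstream of the coding part, and noncoding 5′ exons are joined to the first coding exon.

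Total expected counts over genes lay between 12427136 and 21921252 per library, and Foxp3 itself took between 17336 and 39638 of them, so that counting error on the gene is small beside the spread between libraries. Mitochondrial ribosomal RNA took between 17.7% and 30.1% of counts. The summed level of 8 Treg and T cell identity markers was 7416 to 8831 CPM (counts scaled to library size) in BM-Treg against 8198 to 8986 CPM in SP-Treg. The markers were Cd3d, Cd3e, Cd3g, Cd4, Il2ra, Ctla4, Ikzf2 and Foxp3, so the sum includes the gene described here. Summed levels of other marker lists, each with 0 members that were at 0 in every library, were low for CD8 T and NK cells (10.8 to 12.9 CPM in BM-Treg, 14.01 to 45.3 CPM in SP-Treg) and for B cells (10.8 to 13.9 CPM and 6.32 to 95.2 CPM). Neutrophil and myeloid genes summed to 12.9 to 21.0 CPM in BM-Treg against 4.31 to 38.2 CPM in SP-Treg, and erythroid genes to 4.76 to 9.48 CPM and 1.11 to 129 CPM. The pDC list summed to 47.9 to 57.7 CPM and 25.9 to 63.0 CPM, and the plasma cell list to 340.5 to 490.0 CPM and 353 to 494 CPM. The sum of the plasma cell list is nearly all Prdm1, at 286.9 to 430.3 CPM, and Xbp1, at 51.3 to 74.2 CPM, which Treg express too, while Sdc1, the plasma cell surface marker, was at most 0.587 CPM. The sum of the pDC list is nearly all Ccr9 (8.76 to 41.7 CPM), Tcf4 (6.18 to 15.4 CPM) and Bst2 (4.87 to 12.7 CPM). Its other members, Siglech and Cox6a2, were at most 0.821 CPM and 0.147 CPM. By symbol, 4 of 6 erythroid and 3 of 5 plasma cell genes were matched, and all of the other lists. The part of these lists in the results below was not tested.

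In the deposited tables Foxp3 (ENSMUSG00000039521) spans chrX:7579676-7595243 on the plus strand of GRCm38. The 4 transcripts listed are among the 10 that GENCODE M21 annotates. According to M21, all 4 carry the same coding sequence of 1287 nt without the stop codon, which encodes 429 residues, from chrX:7586355 to chrX:7593040. They differ in the noncoding 5′ exons, and by a few bases at the 3′ end. Foxp3-203 (ENSMUST00000115739, 3763 nt, 13 exons) begins 6686 nt upstream of the start codon and joins 2 noncoding exons to the first coding exon. Foxp3-204 (ENSMUST00000115740, 3834 nt, 14 exons) uses nearly the same start and inserts a noncoding exon of 67 nt. Foxp3-202 (ENSMUST00000115738, 3681 nt, 13 exons) begins in an exon of its own, 5872 nt upstream of the start codon. Foxp3-201 (ENSMUST00000045566, 3572 nt, 11 exons) has no upstream exon and begins 82 nt before the start codon.

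**Figure D1:**
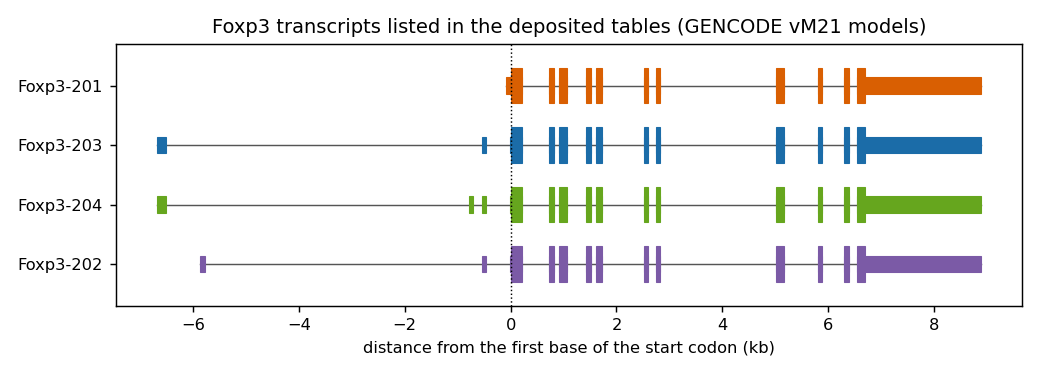
Models of the 4 listed Foxp3 transcripts along the distance from the start codon in kb. Thin boxes are noncoding and tall boxes coding parts of exons, lines are introns, and the dotted line is the start codon. The coding exons coincide, and only Foxp3-201 lacks exons upstream of the first coding exon.

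The assignment of reads to a transcript thus rests on a small part of each molecule. Of the bases of a transcript, 91.3% to 98.0% are in all 4 models. The bases found in no other listed model number 61 nt in Foxp3-201 (1.71% of it), 96 nt in Foxp3-202, 7 nt in Foxp3-203 and 69 nt in Foxp3-204. The 61 nt of Foxp3-201, chrX:7586273-7586333, are intron in the other 3 models, so that a read there can come from Foxp3-201 or from an unspliced RNA. Lengths implied by the ratio of counts to FPKM exceeded that of Foxp3-201 by 108 nt for Foxp3-202, 167 nt for Foxp3-203 and 260 nt for Foxp3-204, against 109, 191 and 262 nt in M21, so the authors' model of Foxp3-203 may have been slightly shorter.

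The windows of 30 nt that tell the models apart are shown 5′ to 3′, taken from the M21 transcript sequences on the plus strand, with the 15 bases before the join in capitals. The first 2 lead into the same coding exon at chrX:7586334-7586348, from chrX:7586319-7586333 without a splice in Foxp3-201 and from the noncoding exon at chrX:7585880-7585894 in Foxp3-203.
Foxp3-201 into the coding exon: CTGTTATCCCTGCAGcctgcctctgacaag
Foxp3-203 into the coding exon: TCTGCCGTTATCCAGcctgcctctgacaag

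The next 3 windows lead into the noncoding exon that Foxp3-202, Foxp3-203 and Foxp3-204 share, at chrX:7585812-7585826, and show the different exon that each joins to it. Their capital parts lie at chrX:7579832-7579846, chrX:7580564-7580578 and chrX:7585623-7585637.
Foxp3-203 into the last noncoding exon: ACCCAGCCACTCCAGctcccggcaacttct
Foxp3-202 into the last noncoding exon: TGTGCCTGGTATATGctcccggcaacttct
Foxp3-204 into the last noncoding exon: GTACTGAATTCAGCTctcccggcaacttct

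The first 30 nt of the coding sequence, chrX:7586355-7586384, are the same in all 4 models, with the start codon in capitals.
Coding start: ATGcccaaccctaggccagccaagcctatg

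RefSeq places 2 starts for Foxp3, at the first bases of Foxp3-204 and of Foxp3-202. The 250 nt before the first, chrX:7579426-7579675 on the plus strand of GRCm38, end just before Foxp3-204 begins, and their last 7 nt are the first bases of Foxp3-203 in M21. They are shown because these 2 models are the ones whose libraries did not overlap between the tissues. A TATAAA motif, in capitals, begins 32 nt before that start.
Foxp3 upstream promoter: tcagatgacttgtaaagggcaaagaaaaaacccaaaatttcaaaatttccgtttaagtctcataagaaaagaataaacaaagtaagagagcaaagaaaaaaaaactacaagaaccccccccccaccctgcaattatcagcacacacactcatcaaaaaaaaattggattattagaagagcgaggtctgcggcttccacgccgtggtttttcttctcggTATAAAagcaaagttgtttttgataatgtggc

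The motif TATAAA was searched on both strands and was in 12.4% of the 32851 windows of 250 nt in the promoter table. It had 1 match in this window and 0 matches in the window before the Foxp3-202 start. A match is a description of the letters only.

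The first comparison asked whether sorted BM-Treg and SP-Treg differ in the level of the gene. Foxp3 was among the most abundant genes in all 8 libraries, between rank 93 and rank 190 by FPKM (counts scaled by transcript length and library depth), and its levels overlapped between the tissues. In BM-Treg replicates 1 to 4 the level was 1497, 1661, 1735 and 2081 CPM. In SP-Treg replicates 1 to 4 it was 1372, 1457, 1721 and 1272 CPM. The highest value was that of BM-Treg replicate 4 and the lowest that of SP-Treg replicate 4, while SP-Treg replicate 3 lay above BM-Treg replicates 1 and 2.

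BM-Treg averaged 1743 ± 246 CPM and SP-Treg 1456 ± 192 CPM (SD over 4 libraries each), and the exact two-sided permutation test of this difference gave p = 0.114. By FPKM the levels were 428, 481, 496 and 560 in BM-Treg and 415, 386, 447 and 341 in SP-Treg, and the exact permutation test gave p = 0.0571. With edgeR's quasi-likelihood test over 13397 genes, the log2 fold change of BM-Treg over SP-Treg was 0.26 with an SE of 0.13, a 95% interval from -0.01 to 0.53 and a Benjamini-Hochberg adjusted p of 0.241, so Foxp3 did not pass the threshold of 0.05. Of all genes tested, 3.72% were called higher and 5.02% lower in BM-Treg, and the libraries of the tissues did not overlap in CPM for 16.2%. This balance depended on the scale and the filter: limma-trend on log2(FPKM + 1) called 3.60% higher and 2.11% lower, and edgeR with at least 10 counts in every library called 5.32% higher and 5.04% lower of 11890 genes.

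Foxp3 passed the threshold in none of the other settings tried that give a test across genes, with adjusted p between 0.138 and 0.494. Within batch 3, where the 1 BM-Treg library has no replicate, the log2 fold change was 0.53, and with batch as a term it was 0.52 (edgeR adjusted p = 0.153). Both values rest on BM-Treg replicate 4, without which it was 0.16 (edgeR adjusted p = 0.494). The plot of levels shows the same overlap on both scales.

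**Figure D2:**
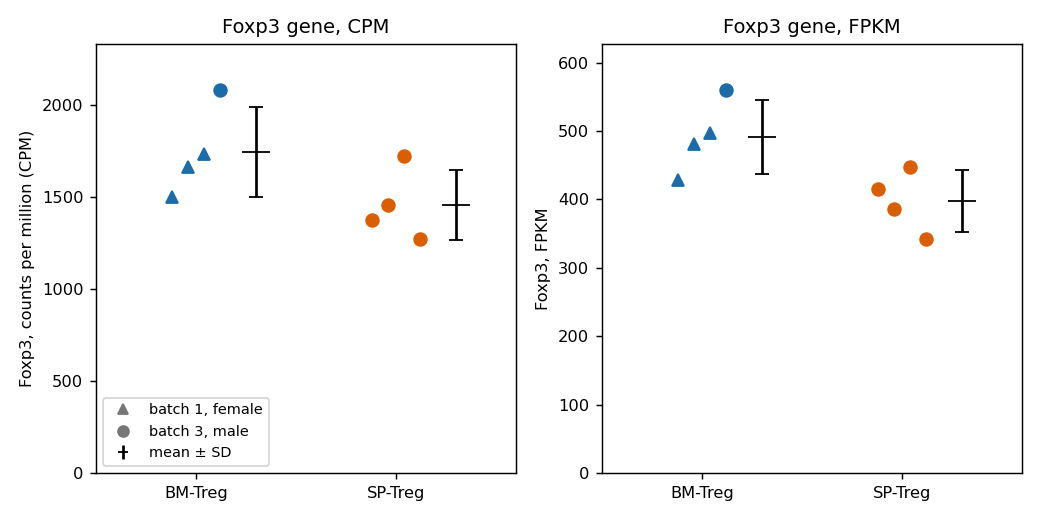
Foxp3 level per library in CPM (left) and FPKM (right), both axes from 0, with triangles for batch 1 (female), circles for batch 3 (male) and bars for the mean ± SD of 4 libraries. BM-Treg span 1497 to 2081 CPM and SP-Treg 1272 to 1721 CPM, so the tissues overlap.

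Set against other T cell genes of the same library, the distance again did not pass. The reference was the mean log2 CPM of Cd3d, Cd3e, Cd3g (chains of the CD3 complex), Cd4 (the coreceptor), Cd2 and Cd5. Foxp3 lay above it by 2.21, 2.13, 2.03 and 2.34 log2 units in BM-Treg replicates 1 to 4 and by 1.72, 1.78, 2.20 and 1.63 log2 units in SP-Treg replicates 1 to 4. SP-Treg replicate 3 lay within the BM-Treg range and the other SP-Treg libraries below it.

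The difference of means was 0.35 log2 units (2.18 ± 0.13 against 1.83 ± 0.25, SD, n = 4 each, exact two-sided permutation p = 0.0857). Without SP-Treg replicate 3 it was 0.47 (exact permutation p = 0.0286, the smallest that 3 against 4 libraries allow). SP-Treg replicate 3 was the only SP-Treg library within the BM-Treg range, so leaving it out fixed this p, which is no test. Set against Cd4 alone the difference of means was 0.10 (exact permutation p = 0.4). Within batch 3 the difference from the whole reference was 0.51 log2 units with no test.

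The second comparison took the transcripts apart. Foxp3-203, the model with the upstream start, was higher in every BM-Treg library than in every SP-Treg library. In BM-Treg replicates 1 to 4 it had 1035, 1215, 1391 and 977 CPM. In SP-Treg replicates 1 to 4 it had 515, 643, 596 and 708 CPM. The average was 1154 ± 187 CPM against 615 ± 81.2 CPM (SD over 4 libraries each), a ratio of 1.88, and the exact two-sided permutation test gave p = 0.0286, the smallest that 4 against 4 libraries allow. This test was run on each of the 4 transcripts without adjustment. BM-Treg replicate 4, from the same batch and sex as SP-Treg, was the lowest of the BM-Treg libraries and still above the highest SP-Treg library.

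In the edgeR fit over 28756 transcripts, Foxp3-203 had a log2 fold change of 0.91 with an SE of 0.14 and a 95% interval from 0.58 to 1.24, with an adjusted p of 0.0592. It did not pass the threshold in that fit. Of all transcripts tested 0.146% passed it, and the libraries of the tissues did not overlap for 9.64%. The call depended on the fit. Foxp3-203 passed with DESeq2, which called 3.79% of transcripts (adjusted p = 1.09e-06), and in edgeR with at least 10 counts in every library, which called 2.19% (adjusted p = 0.0125). It also passed with limma-trend on FPKM, at an adjusted p of 0.0340 with a pseudocount of 1, where 0.396% were called, and of 0.0393 with 0.1, where 0.323% were called. It did not pass with limma-voom (adjusted p = 0.0542), in edgeR without the filter (adjusted p = 0.0517) or with DESeq2's size factors (adjusted p = 0.0584). Nor did it pass without any 1 of the libraries (edgeR adjusted p between 0.0777 and 0.189). Those fits called few transcripts at all, from 0 of 29904 without BM-Treg replicate 2 to 43 of 30628 without SP-Treg replicate 1. The log2 fold change of Foxp3-203 in them was 0.81 to 0.98. Within batch 3 the log2 fold change was 0.66 with no test, and with batch as a term it was 0.67 (edgeR adjusted p = 0.239).

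Foxp3-204, which shares its first exon with Foxp3-203, also had tissues that did not overlap. It had 140, 88.1, 87.3 and 56.0 CPM in BM-Treg replicates 1 to 4, and 0, 20.2, 27.3 and 40.4 CPM in SP-Treg replicates 1 to 4. No count was assigned to it in SP-Treg replicate 1. The edgeR log2 fold change was 2.08 with an SE of 1.02 and an adjusted p of 0.482, while the exact permutation test of the CPM gave p = 0.0286. Without SP-Treg replicate 1 the log2 fold change was 1.66 with an SE of 0.36 (edgeR adjusted p = 0.170).

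Foxp3-202 was the least abundant transcript in 6 of the 8 libraries. It had 16.5, 14.8, 62.6 and 26.5 CPM in BM-Treg and 2.45, 9.39, 65.5 and 8.60 CPM in SP-Treg. Replicate 3 was the highest library of each tissue, and the ranges overlapped through SP-Treg replicate 3 alone, since the other 3 SP-Treg libraries lay below all BM-Treg libraries. The edgeR log2 fold change was 0.49 (SE 0.94, adjusted p = 0.912). It was 2.14 without SP-Treg replicate 3 (edgeR adjusted p = 0.288) and -0.16 without BM-Treg replicate 3 (edgeR adjusted p = 0.983). Summed over Foxp3-202, Foxp3-203 and Foxp3-204, a sum formed after the single values had been seen, the models with upstream exons had 1059 to 1541 CPM in BM-Treg against 517 to 757 CPM in SP-Treg, with a ratio of means of 1.94 and no test.

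Foxp3-201, which has no upstream exon, overlapped between the tissues through BM-Treg replicate 4. In BM-Treg replicates 1 to 3 it had 255, 335 and 256 CPM, and in BM-Treg replicate 4 it had 1027 CPM. In SP-Treg replicates 1 to 4 it had 882, 806, 994 and 501 CPM. The 3 libraries of batch 1 lay below all 5 libraries of batch 3, and BM-Treg replicate 4 was the highest of all 8. Tissue, batch and sex cannot be told apart in this.

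The edgeR log2 fold change of Foxp3-201 was -0.76 with an SE of 0.48, a 95% interval from -1.87 to 0.34 and an adjusted p of 0.615. Its direction turned with the batch: it was 0.37 with batch as a term (edgeR adjusted p = 0.701) and 0.36 within batch 3, and -1.50 without BM-Treg replicate 4 (edgeR adjusted p = 0.0867).

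**Figure D3:**
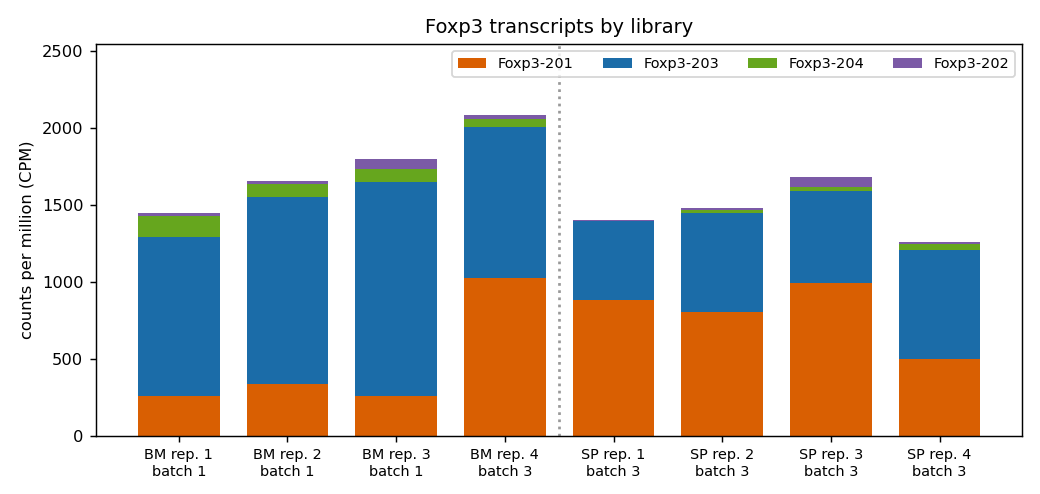
CPM of the 4 Foxp3 transcripts stacked by library, with the vertical axis from 0 and a dotted line between BM-Treg and SP-Treg. Foxp3-203 is 977 to 1391 CPM in BM-Treg against 515 to 708 CPM in SP-Treg, and Foxp3-201 is lowest in the 3 libraries of batch 1.

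Expressed as a share of the expected counts of the gene, the main pair of transcripts exchanged places between libraries. Foxp3-201 held 17.6%, 20.3%, 14.3% and 49.2% in BM-Treg replicates 1 to 4, and 63.1%, 54.5%, 59.1% and 39.8% in SP-Treg replicates 1 to 4. Foxp3-203 held 71.5%, 73.5%, 77.4% and 46.8% in BM-Treg, and 36.8%, 43.5%, 35.4% and 56.3% in SP-Treg. Foxp3-203 was thus the larger in the 3 libraries of batch 1 and in SP-Treg replicate 4, and the smaller in BM-Treg replicate 4 and the other SP-Treg libraries.

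The mean share of Foxp3-201 was 25.3 ± 16.1% in BM-Treg and 54.1 ± 10.1% in SP-Treg (SD, n = 4 each, exact two-sided permutation p = 0.0571). That of Foxp3-203 was 67.3 ± 13.9% and 43.0 ± 9.53% (exact permutation p = 0.0571). Shares of Foxp3-204 were 5.64 ± 2.94% and 1.55 ± 1.32% (exact permutation p = 0.0571), and of Foxp3-202 1.7 ± 1.2% and 1.35 ± 1.71% (exact permutation p = 0.543). These are 4 tests on shares that sum to the whole, with unadjusted p-values.

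Without BM-Treg replicate 4, the differences of BM-Treg minus SP-Treg were -36.7 percentage points for Foxp3-201, 31.2 for Foxp3-203 and 5.08 for Foxp3-204 (exact permutation p = 0.0286 each, the smallest that 3 against 4 libraries allow). For each, BM-Treg replicate 4 was the only BM-Treg library within the SP-Treg range. Leaving it out therefore fixed this p, which is no test. Within batch 3 the differences were -4.88, 3.82 and 1.13 percentage points, with no test. The share of Foxp3-201 was 14.3% to 20.3% in the 3 libraries of batch 1 and 39.8% to 63.1% in batch 3, where BM-Treg has 1 library. Tissue, batch and sex cannot be told apart in these shares.

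The formal test of transcript usage asks whether a transcript changes relative to the others of its gene. With edgeR's diffSpliceDGE over 21671 transcripts, of which 0.198% were called, 0 of the 4 Foxp3 transcripts passed, with an adjusted p that rounds to 1 for each. The relative log2 fold changes were -0.71 for Foxp3-201, 0.45 for Foxp3-203, 1.26 for Foxp3-204 and 0.16 for Foxp3-202. Before adjustment, Foxp3-204 alone was under 0.05 in edgeR. With limma's diffSplice 0 passed after adjustment, the smallest adjusted p being 0.101 for Foxp3-201. None of these tests models the uncertainty with which reads were split between transcripts.

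Since Foxp3-201 is told from the others at its 5′ end alone, genes of the same build were set beside it. In 42 other genes whose listed transcripts share a coding sequence and end within 100 nt of each other while their starts differ by more than 1 kb, the median share of counts in transcripts that begin more than 1 kb downstream was 51.5%, 60.9% and 61.1% in the batch 1 libraries. In BM-Treg replicate 4 it was 67.5%, and in SP-Treg replicates 1 to 4 it was 71.1%, 68.9%, 64.2% and 65.2%. Directions differed among the genes. The mean share over the batch 1 libraries was lower than over batch 3 in 19 of the 42 genes and higher in 17. The rest, such as Pdcd4 at 100%, had the same share in every library and could not show a direction. Some shares moved widely between libraries, as that of 4931406C07Rik did from 3.05% to 100%. All 3 batch 1 libraries lay below all 5 of batch 3 in 3 genes and above them in 2. The means over the same genes were 52.2% to 53.1% in batch 1 and 52.8% to 57.5% in batch 3, and overlapped. The part of this in the Foxp3 shares was not tested.

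**Figure D4:**
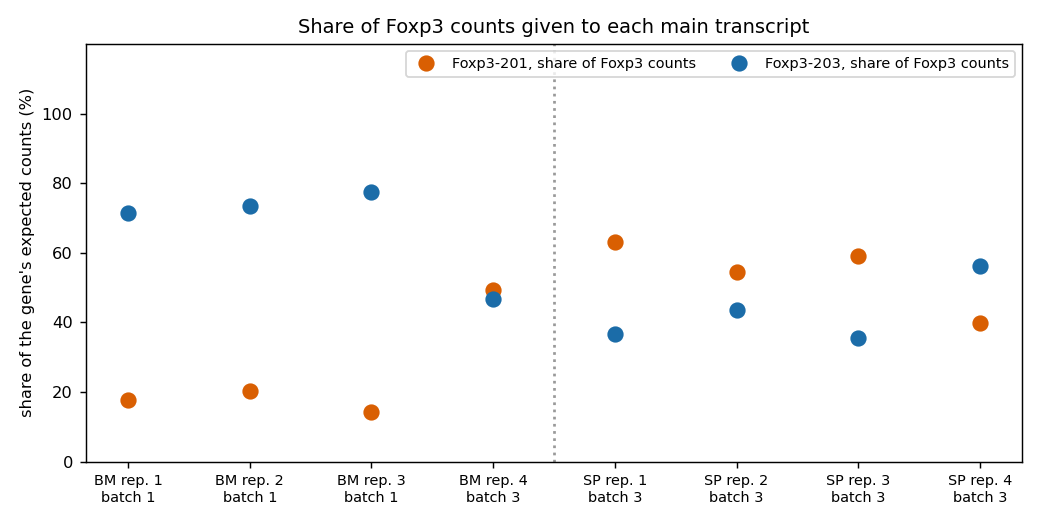
Share of the expected counts of Foxp3 held by Foxp3-201 and Foxp3-203 in each library (filled circles, in percent). Foxp3-201 is at 14.3% to 20.3% in the 3 libraries of batch 1 and at 39.8% to 63.1% in the 5 libraries of batch 3.

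**Figure D5:**
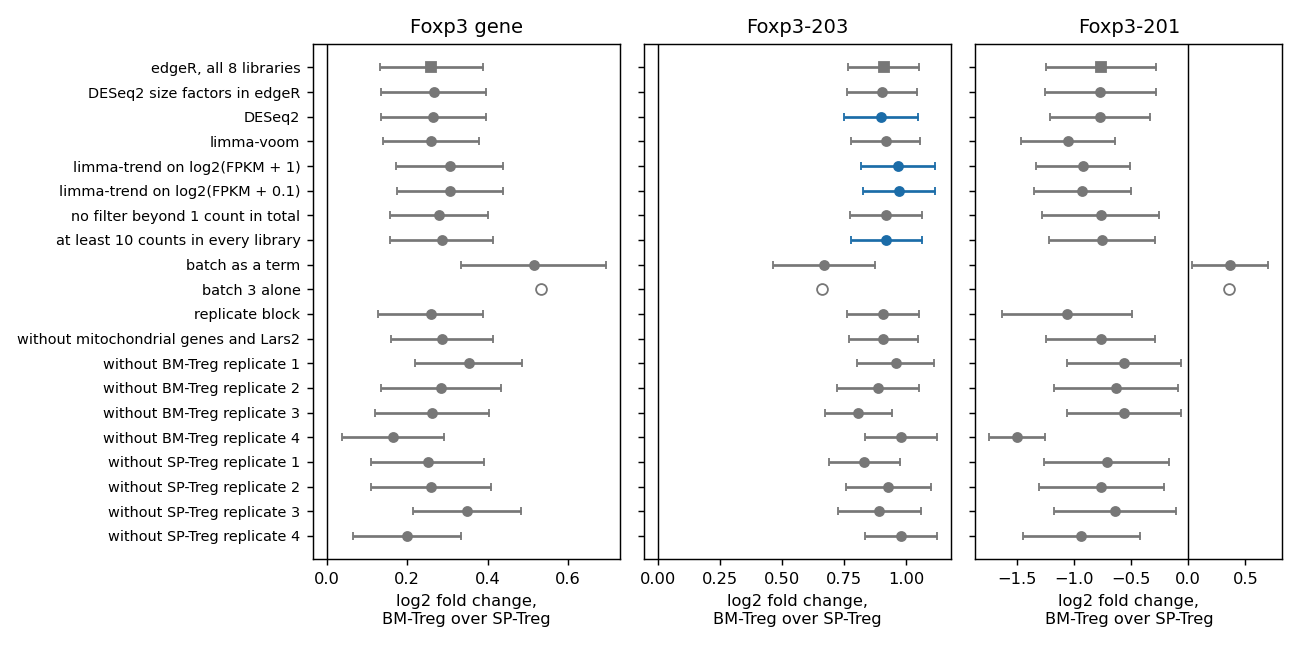
Log2 fold change of BM-Treg over SP-Treg for the Foxp3 gene, Foxp3-203 and Foxp3-201 under each setting, with bars of 1 SE, blue where the adjusted p is under 0.05, an open circle for the value within batch 3 that has no test, and a square for the edgeR fit of all 8 libraries. The gene and Foxp3-203 stay above 0 throughout, and Foxp3-201 turns from -0.76 to 0.37 with batch as a term.

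Genes near Foxp3 were taken from the deposited coordinates, in which 14 genes lie within 100 kb, and 6 of them passed the filter on low counts. Of these, 3 overlap the interval of Foxp3. Ccdc22, which encodes a subunit of an endosomal sorting complex, runs on the minus strand from the other side, and 590 nt of its exons lie in the last exon of Foxp3. It had 191, 159, 145 and 251 CPM in BM-Treg replicates 1 to 4 and 95, 116, 199 and 118 CPM in SP-Treg replicates 1 to 4, ranges that overlapped (edgeR log2 fold change 0.50, SE 0.25, adjusted p = 0.271). SP-Treg replicate 3, its highest SP-Treg library, was the only one within the BM-Treg range and was singled out with the values seen. Without that library the log2 fold change of Ccdc22 was 0.76 (edgeR adjusted p = 0.0219). Leaving it out removed the overlap by choice, so this p is no test. The sources used here do not state that strand was used in counting, so whether reads of this stretch could be told apart by strand is not known, and their part in the Foxp3 level was not tested.

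The long noncoding RNA listed as 4930524L23Rik, which M21 names Flicr, runs on the strand of Foxp3 from upstream. Its exons hold 274 nt of Foxp3 exons, among them all 178 nt of the first exon of Foxp3-203 and the 96 nt of the first exon of Foxp3-202, so that reads there were divided between both genes. It had 44.7, 40.5, 35.9 and 32.0 CPM in BM-Treg and 40.2, 40.4, 42.0 and 40.6 CPM in SP-Treg (edgeR log2 fold change -0.09, SE 0.12, adjusted p = 0.699). The gene listed as Ppp1r3f, a regulatory subunit of protein phosphatase 1, shares 373 nt with the last exon of Foxp3 through its listed transcripts. Of its 7 listed transcripts 6 are in M21, which gives some of them to Gm36995. Which of these names holds the shared bases was not examined. As listed, it had 39.8 to 52.9 CPM in BM-Treg against 46.2 to 57.4 CPM in SP-Treg (edgeR log2 fold change -0.11, adjusted p = 0.658).

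Of the tested genes nearby, only Syp, which encodes the synaptic vesicle protein synaptophysin, passed, with 3.57 to 5.85 CPM in BM-Treg against 6.01 to 11.8 CPM in SP-Treg (log2 fold change -1.03, SE 0.24, edgeR adjusted p = 0.0165). It lost the call with batch as a term (log2 fold change -0.67, adjusted p = 0.375) and without BM-Treg replicate 2, BM-Treg replicate 3 or SP-Treg replicate 4 (edgeR adjusted p = 0.0534, 0.0531 and 0.0525). Prickle3 had 13.2 to 17.0 CPM in BM-Treg against 11.2 to 13.0 CPM in SP-Treg (edgeR log2 fold change 0.29, adjusted p = 0.271), and Plp2 had 32.9 to 63.1 CPM and 36.3 to 47.7 CPM (0.09, adjusted p = 0.805). The other 8 did not pass the filter: Cacna1f, Magix, Gm14394 and Gm14703 were at most 2.84 CPM in any library, and Gm6079, Gm14381, Gm14395 and SNORA70 were at 0 in all.

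Within its own family Foxp3 was the most abundant member in every library. On the FPKM scale, which is per length, Foxp1 had 62.5 to 90.8 in BM-Treg and 38.9 to 91.2 in SP-Treg, Foxp4 had 16.1 to 26.9 and 19.0 to 32.6, and Foxp2 had at most 0.43. FOXP1 and FOXP4 are forkhead proteins that can pair with FOXP3. Of the 3 members that were tested 0 were called by edgeR, with log2 fold changes of 0.06 for Foxp1 (SE 0.20, adjusted p = 0.892) and -0.13 for Foxp4 (SE 0.14, adjusted p = 0.600), and 0 of the 3 had an unadjusted p under 0.05. DESeq2 also called 0, against 4.86% of all genes called higher and 6.36% lower, as did limma-voom, against 3.77% and 5.26%.

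Genes that act on the Foxp3 locus were described from a list of 43 regulators, of which 41 were matched by symbol and tested. In BM-Treg, 2 rose and 7 fell (edgeR, adjusted p under 0.05), with a median log2 fold change of -0.09 over the 41, against -0.01 over all genes tested. Those that fell included Rel, the NF-κB subunit c-Rel that binds a Foxp3 enhancer, from 122 to 163 CPM in SP-Treg to 74.3 to 88.5 CPM in BM-Treg (log2 fold change -0.78, SE 0.11, edgeR adjusted p = 0.000909). Satb1, a chromatin organizer that acts early at Treg genes, fell from 308 to 532 CPM in SP-Treg to 177 to 216 CPM in BM-Treg (log2 fold change -1.06, SE 0.15, edgeR adjusted p = 0.00116).

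Egr2 and Egr1, transcription factors induced by the T cell receptor, also fell. Egr2 had 8.37 to 18.0 CPM in BM-Treg against 51.6 to 87.7 CPM in SP-Treg (log2 fold change -2.41, SE 0.28, edgeR adjusted p = 0.00131). Egr1 had 61.4 to 109 CPM and 136 to 179 CPM (log2 fold change -1.02, SE 0.17, edgeR adjusted p = 0.00343). Myb, a transcription factor of progenitors and of activated Treg, had 16.7 to 18.9 CPM in BM-Treg against 33.2 to 52.0 CPM in SP-Treg (log2 fold change -1.26, SE 0.14, edgeR adjusted p = 0.000206). Foxp3 itself, with a log2 fold change of 0.26, did not pass the test in these libraries.

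Of 41 genes whose proteins bind or modify FOXP3, 40 were tested, and 2 rose and 4 fell in BM-Treg, with a median log2 fold change of -0.10. Gata3, a transcription factor that binds FOXP3 and the Foxp3 locus, rose from 159 to 174 CPM in SP-Treg to 204 to 236 CPM in BM-Treg (log2 fold change 0.43, SE 0.09, edgeR adjusted p = 0.00906). Pim1, a kinase that phosphorylates FOXP3, rose from 108 to 171 CPM to 191 to 256 CPM (log2 fold change 0.75, SE 0.14, edgeR adjusted p = 0.00451).

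Irf4, a partner of FOXP3 in effector Treg, fell from 234 to 369 CPM in SP-Treg to 125 to 151 CPM in BM-Treg (log2 fold change -1.14, SE 0.14, edgeR adjusted p = 0.000392). Tcf7, which encodes TCF-1, fell from 139 to 222 CPM to 57.5 to 92.8 CPM (log2 fold change -1.40, SE 0.17, edgeR adjusted p = 0.000900). Hnrnpf, an RNA-binding protein, fell by 0.39 on the log2 scale (SE 0.10, edgeR adjusted p = 0.0257), and lost the call without any 1 of the BM-Treg replicates, without SP-Treg replicate 1 and without SP-Treg replicate 4 (edgeR adjusted p between 0.0510 and 0.0761).

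Genes listed here as bound and held up by FOXP3 numbered 30, of which 29 were matched by symbol and tested. Whether FOXP3 acts on them in these cells was not tested. Of these 3 rose and 8 fell, with a median log2 fold change of -0.29 over the 29. The 11 calls became 6, 5 and 7 without BM-Treg replicate 1, 2 and 4. Calls over all genes went from 1172 of 13397 to 819 of 13606, 690 of 13621 and 1006 of 13755 in the same fits. Klrg1, an inhibitory lectin-like receptor, rose from 106 to 116 CPM in SP-Treg to 194 to 326 CPM in BM-Treg (log2 fold change 1.07, SE 0.15, edgeR adjusted p = 0.00105). Fgl2, a secreted suppressive protein, rose from 54.2 to 83.7 CPM to 110 to 156 CPM (log2 fold change 1.02, SE 0.14, edgeR adjusted p = 0.000909).

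Nt5e, the ectoenzyme CD73 that makes adenosine, fell from 159 to 248 CPM in SP-Treg to 67.7 to 91.8 CPM in BM-Treg (log2 fold change -1.35, SE 0.16, edgeR adjusted p = 0.000568). Tigit, an inhibitory receptor, fell from 472 to 606 CPM to 252 to 443 CPM (log2 fold change -0.68, SE 0.15, edgeR adjusted p = 0.0121). Plagl1, a zinc finger protein, fell from 8.05 to 19.1 CPM to 4.01 to 5.20 CPM (log2 fold change -1.47, SE 0.24, edgeR adjusted p = 0.00218).

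Genes listed here as bound and held down by FOXP3 numbered 17, of which 13 were tested. Of these 2 rose and 5 fell, with a median log2 fold change of -0.01 over the 13. Il7r, the IL-7 receptor chain, rose from 244 to 416 CPM in SP-Treg to 578 to 623 CPM in BM-Treg (log2 fold change 0.82, SE 0.14, edgeR adjusted p = 0.00218). Ptpn22, a phosphatase that damps T cell receptor signals, fell from 169 to 269 CPM to 108 to 120 CPM (log2 fold change -0.87, SE 0.13, edgeR adjusted p = 0.00123). Zap70, a kinase of the T cell receptor, fell from 55.3 to 63.5 CPM to 41.3 to 49.1 CPM (log2 fold change -0.44, SE 0.11, edgeR adjusted p = 0.0183), and lost the call without BM-Treg replicate 1, BM-Treg replicate 2 or SP-Treg replicate 1 (edgeR adjusted p = 0.0694, 0.0602 and 0.0533). Tcf7 and Satb1, given above, belong to this list as well.

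The counts of called members stand beside the 3.72% and 5.02% of all genes called higher and lower. The members were chosen with earlier results of these data known, so no difference from these shares can be read from the counts. With batch as a term, 3 of 41 regulators, 3 of 40 partners, 2 of 29 genes held up and 1 of 13 genes held down were then called, against 1.93% of all genes called in either direction. With limma-trend on log2(FPKM + 1), 1 regulator rose and 5 fell, and 1 partner rose and 2 fell. In each of the lists held up and held down, 2 genes rose and 3 fell. That fit called 3.60% of all genes higher and 2.11% lower. With at least 10 counts in every library, 8 regulators, 6 partners, 11 genes held up and 7 genes held down were called. The fit with this filter called 5.32% of all genes higher and 5.04% lower. Over all genes tested, 258 were called with batch as a term and 1172 without. Each of the 18 called genes named from the lists kept its direction with batch as a term, and 7 kept the call, namely Myb, Rel, Egr2, Irf4, Tcf7, Nt5e and Klrg1. Depth and the marker lists above differ between the libraries too, and their part was not tested.

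The genes whose log2 CPM followed that of Foxp3 most closely over the 8 libraries were Scoc (Pearson r = 0.966), B230120H23Rik (0.963), Zfp759 (0.961), Nme3 (0.957) and Trim3 (0.954). They were chosen as the 5 highest among tested genes whose mean log2 CPM reached 1. The libraries share depth and batch, and these genes are low, with mean log2 CPM between 2.25 and 3.08 against 10.6 for Foxp3. None of the 5 was called between the tissues (edgeR adjusted p between 0.155 and 0.610). All 5 were highest, as Foxp3 was, in BM-Treg replicate 4, where Scoc had 10.8 CPM against 3.74 to 8.81 CPM elsewhere. A shared highest library follows in part from the choice by r over the same libraries. The r values are the highest of many and were not tested.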

How the data were processed

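The authors deposited expected counts, which are estimates of reads per gene and per transcript and need not be whole, and FPKM values per gene and per transcript. The submitters' processing notes name cutadapt 1.9, STAR 2.5.2a, RSEM 1.2.30 and GRCm38. RNA was amplified by a single primer isothermal method and read from a single end at 80 nt. Expected counts were rounded, filtered by edgeR's default on groups, normalized by TMM and tested by the robust quasi-likelihood test in edgeR 4.0.16 (R 4.3.3, limma 3.58.1, DESeq2 1.42.0) without covariates, adjusted over all genes or all transcripts. CPM values use TMM library sizes, separately for the gene and the transcript table, and log2 CPM a prior count of 2. Each column matched a library by name. Transcript models and sequences came from GENCODE M21, promoters from RefSeq (GRCm38.p6). Of 184 list entries 177 matched a gene symbol. Members and lists were chosen with earlier results of these data known. Named genes were Foxp3, its transcripts, genes within 100 kb, up to 5 called members per list of smallest adjusted p (where fewer than 2 were called, the 2 most abundant) and the 5 genes most like Foxp3. The tests were tried on simulated data with the same spread set for every feature of a table, no batch and no error in assigning reads. That trial cannot show how the tests behave where batch or read assignment matters. Counts come from amplified cDNA without molecular identifiers, so the errors given are the spread over libraries.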

Additional observations from a re-analysis of the deposited data

Results flagged for a closer look

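In 7 of the 94 groups of 4 libraries examined, 1 library stood far from the other 3 (Dixon's test, which flags about 1 group in 20 by chance). Foxp3-201 in BM-Treg replicate 4 was at 1027 CPM and 282 FPKM, against 255 to 335 CPM and 73.7 to 101 FPKM in the other BM-Treg libraries. Foxp3-202 in SP-Treg replicate 3 was at 65.5 CPM, 17.2 FPKM and 3.89% of Foxp3 counts, against 2.45 to 9.39 CPM, 0.72 to 2.43 FPKM and 0.175% to 0.684% in the other SP-Treg libraries. Foxp3-202 also held 3.48% of Foxp3 counts in BM-Treg replicate 3, against 0.896% to 1.27% in the other BM-Treg libraries. Tcf7 in BM-Treg replicate 1 was at 92.8 CPM, against 57.5 to 62.4 CPM. BM-Treg replicate 4 differs from the other BM-Treg libraries in batch and sex, and the part of either was not tested.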

How the results depend on the processing

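The batch 3 libraries alone gave log2 fold changes of 0.53 for the Foxp3 gene, 0.66 for Foxp3-203 and 0.36 for Foxp3-201, which turned, and differences in share of -4.88 (Foxp3-201), 3.82 (Foxp3-203), 1.13 (Foxp3-204) and -0.0771 percentage points (Foxp3-202, turned), all without a test. With batch as a term Foxp3-201 turned to 0.37 and the relative change of Foxp3-202 in usage to -0.15. Called members then numbered 3 regulators, 3 partners, 2 genes held up, 1 gene held down and 0 neighbours, against 1.93% of all genes. DESeq2 called 2 neighbours, against 4.86% of all genes called higher and 6.36% lower. Foxp3-203 passed the threshold at 0.90 with DESeq2, 0.97 with limma-trend at either pseudocount and 0.92 with at least 10 counts in every library. The exact permutation of CPM, added after the data were seen, had Foxp3-203 at 0.91 and Foxp3-204 at 2.08, past an unadjusted threshold.

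Leaving out each library in turn gave log2 fold changes of -0.16 to 2.14 for Foxp3-202, relative changes in usage of -0.28 to 1.25 for Foxp3-202, and differences in share of -36.7 to -25.1 (Foxp3-201), -0.24 to 1.2 (Foxp3-202), 21.0 to 31.2 (Foxp3-203) and 2.74 to 5.08 percentage points (Foxp3-204). It gave 0.28 to 0.47 for Foxp3 against the T cell reference, 5 to 12 called genes held up, 0 to 2 called neighbours, and log2 fold changes of -0.0881 to 0.21 for Foxp1 and -0.12 to 0.21 for Plp2. Over all genes tested the same fits called 690 to 1048 genes, against 1172 with all 8 libraries. The cause of these changes was not tested.

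The numbers of replicates did not pair the libraries: correlations of deviations between libraries of the same number were -0.11, 0.06, -0.18 and 0.04. With the replicate number as a block the Foxp3 gene was at 0.26 (edgeR adjusted p = 0.285) and Foxp3-203 at 0.90 (edgeR adjusted p = 0.314). The block called 948 genes in place of 1172, and 1 transcript in place of 42. Among the fits across all genes or all transcripts, none called the Foxp3 gene, Foxp3-201, Foxp3-202 or Foxp3-204. Foxp3-204 could not be fitted with at least 10 counts in every library. Without SP-Treg replicate 1, where Foxp3-204 had 0 counts, its SE fell from 1.02 to 0.36.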
